A study of Mus musculus with 24 samples.

Results

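Integrins are the receptors that hold a cell to its matrix, and focal adhesion proteins join them to the actin skeleton inside the cell. The account below follows 38 such genes, 12 alpha integrins, 8 beta integrins and 18 cytoplasmic proteins, chosen by gene symbol from a list of names and found in all 3 expression tables of the series, where they are 38 of 35680 genes listed throughout. The genes were chosen with earlier results of these data known. RNA was sequenced from mouse ovarian surface epithelial cells, the single cell layer on the outside of the ovary, in 24 libraries that form 8 groups of 3. In the line m1102, 12 libraries came from attached monolayers and from spheroids (cell clusters in ultra low attachment plates), each untreated or given TGFB1, the cytokine transforming growth factor beta 1, at 10 ng/mL; for spheroids this was over 4 days before low-attachment culture, and for monolayers no time is given. A further 6 m1102 libraries carried a lentiviral Snail construct or the lentiviral vector control WPI, and 6 libraries of the line mOSE_BRCA1_fl, from BRCA fl/fl mice, carried adenoviral Cre (labelled BRCA1 ko) or adenoviral GFP (labelled BRCA1 wt). Each experiment used 1 line. Every one of the 6 monolayer samples carries a label of re-analysis and none of the spheroids does, so the form of culture and where a library came from cannot be told apart. Nothing in the labels tells whether a group's 3 libraries are 3 cultures, and the p-values below therefore cover spread among libraries, which may be technical. The labels of the first 2 untreated monolayers point to 1 and the same earlier sample, but their values differed as much as those of other pairs of that group (Pearson's r across genes 0.988, against 0.989 and 0.990), and both were kept.

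As background, an integrin is a pair of 1 alpha and 1 beta chain, and the alpha chain largely sets the ligand. Itga3, Itga6 and Itga7 make laminin receptors, Itga1, Itga2, Itga10 and Itga11 make collagen receptors with Itgb1, and Itga5, Itga8 and Itgav read the RGD motif of fibronectin and related proteins. Talins and kindlins bind the beta tail and switch the receptor on. The ILK, PINCH and parvin complex, the kinases FAK (Ptk2) and Src with their scaffolds, and actin linkers such as vinculin then build the adhesion. The ovarian surface epithelium rests on a basement membrane rich in laminin and collagen, and detached ovarian cells survive as clusters.

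Promoter sequences are shown for 4 integrin genes called with TGFB1 in the results below, since TGFB1 acts through SMAD proteins and Snail binds E-boxes. Each is 250 bases before to 50 after the RefSeq start on GRCm38.p6, given 5′ to 3′ on the strand of the gene, with capitals marking CAGAC (or GTCTG, the same motif on the other strand), the SMAD box, and CAGGTG (or CACCTG), the E-box that Snail binds. The Itga2 promoter is chr13:114932051-114932350 on the minus strand and holds 3 SMAD boxes. The Itga11 promoter is chr9:62677605-62677904 on the plus strand and holds 1 E-box. The Itga5 promoter is chr15:103366742-103367041 on the minus strand and holds 2 SMAD boxes, and the Itgb8 promoter, chr12:119238227-119238526 on the minus strand, holds 1 SMAD box and 1 E-box. In GENCODE M21, on the same assembly, the genes span chr13:114833081-114932100 (Itga2), chr9:62677826-62783982 (Itga11), chr15:103344286-103366763 (Itga5) and chr12:119158022-119238802 (Itgb8).
Itga2: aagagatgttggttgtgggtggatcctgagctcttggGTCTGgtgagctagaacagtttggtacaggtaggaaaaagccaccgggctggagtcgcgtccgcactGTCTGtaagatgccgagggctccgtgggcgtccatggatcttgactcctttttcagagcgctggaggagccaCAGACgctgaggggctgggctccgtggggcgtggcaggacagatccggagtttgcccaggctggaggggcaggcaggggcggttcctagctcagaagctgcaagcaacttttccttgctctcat
Itga11: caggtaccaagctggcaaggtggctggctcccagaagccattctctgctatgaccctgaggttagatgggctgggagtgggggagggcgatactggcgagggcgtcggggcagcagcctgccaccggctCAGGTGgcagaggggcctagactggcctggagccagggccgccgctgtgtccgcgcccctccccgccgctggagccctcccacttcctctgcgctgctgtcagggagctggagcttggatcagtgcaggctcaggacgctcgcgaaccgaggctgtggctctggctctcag
Itga5: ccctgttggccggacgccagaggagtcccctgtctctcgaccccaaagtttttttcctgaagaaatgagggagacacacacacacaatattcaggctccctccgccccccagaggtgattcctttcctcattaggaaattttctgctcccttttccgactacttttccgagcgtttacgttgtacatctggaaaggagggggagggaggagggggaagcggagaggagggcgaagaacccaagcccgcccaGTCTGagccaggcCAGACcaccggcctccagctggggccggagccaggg
Itgb8: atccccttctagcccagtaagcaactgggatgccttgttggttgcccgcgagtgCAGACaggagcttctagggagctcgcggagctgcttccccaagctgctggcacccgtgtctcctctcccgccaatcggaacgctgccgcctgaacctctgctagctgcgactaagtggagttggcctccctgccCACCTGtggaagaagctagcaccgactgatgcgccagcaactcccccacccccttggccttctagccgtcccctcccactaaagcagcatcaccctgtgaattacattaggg
These motifs are short and common. CAGAC stood in 49.6% of all 32851 RefSeq promoters of this length and in 17 of the 34 promoters found for 28 members. CAGGTG stood in 20.2% of the promoters counted and in 8 of the 34, and TGANTCA, the AP-1 motif, in 7.81% and in 3 of the 34. A match describes letters only, and binding was not measured.

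The level of a gene is given here as scaled TPM, the deposited value, which is TPM (transcript abundance corrected for gene length) times a factor per library. The 24 columns summed to between 796668 and 1810667. Each of the 3 tables has its own normalization, so no level is compared across tables. Read depth per library is unknown. Markers of the ovarian surface epithelium were present in monolayers, where the summed level of 12 markers was 1781 to 1913, but Krt8 and Lhx9 were near 0 in m1102. The same sum was 963 to 1282 in monolayers with TGFB1, 316 to 501 in untreated spheroids and 279 to 485 in spheroids with TGFB1, so these sums lay below the untreated monolayers in all 3 other groups but overlapped between spheroids without and with TGFB1, and their part in the results was not tested. In bulk RNA fewer cells of a type and less RNA per cell cannot be told apart. Of 10 leukocyte markers 1 (Cd68) had a mean of at least 1 in any m1102 group of this experiment, and Ptprc was at most 0.124 in its 12 libraries; their summed level was 8.78 to 26.8 in monolayers and 12.7 to 67.1 in spheroids. The sum of 10 endothelial and platelet markers was 3.38 to 5.84 in monolayers, 7.19 to 13.9 in untreated spheroids and 31.2 to 55.4 in spheroids with TGFB1, where Cdh5 reached 51.3, 32.8 and 23.9, while Kdr was at most 0.0436 in any of the 12 libraries. The part of these markers in the results was not tested.

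In untreated monolayers the laminin receptor chains led among the alpha integrins and Itgb1 among the beta integrins. Itgb1, the partner of most alpha chains, was the highest of the 20 integrins at 462 ± 29.4 scaled TPM (SD, n = 3), followed by Itga6 at 348 ± 26.4, Itga3 at 228 ± 13.7 and Itgb5 at 133 ± 12.9. Itgav, at 83.4 ± 2.05, stood above Itga7 at 48.1 ± 4.45 and Itga5 at 45.2 ± 3.13, and the last pair did not differ beyond their spread. Among the cytoplasmic members Parva, Ilk, Zyx, Tln1 and Vcl stood between 172 and 226 on average. A mean under 1 was found for Itga1, Itga2, Itga4, Itga8, Itga9, Itga10, Itga11, Itgb4, Itgb6, Itgb7, Parvb and Fermt1. The heat map of all members shows this order and its changes over the 12 libraries.

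**Figure D1:**
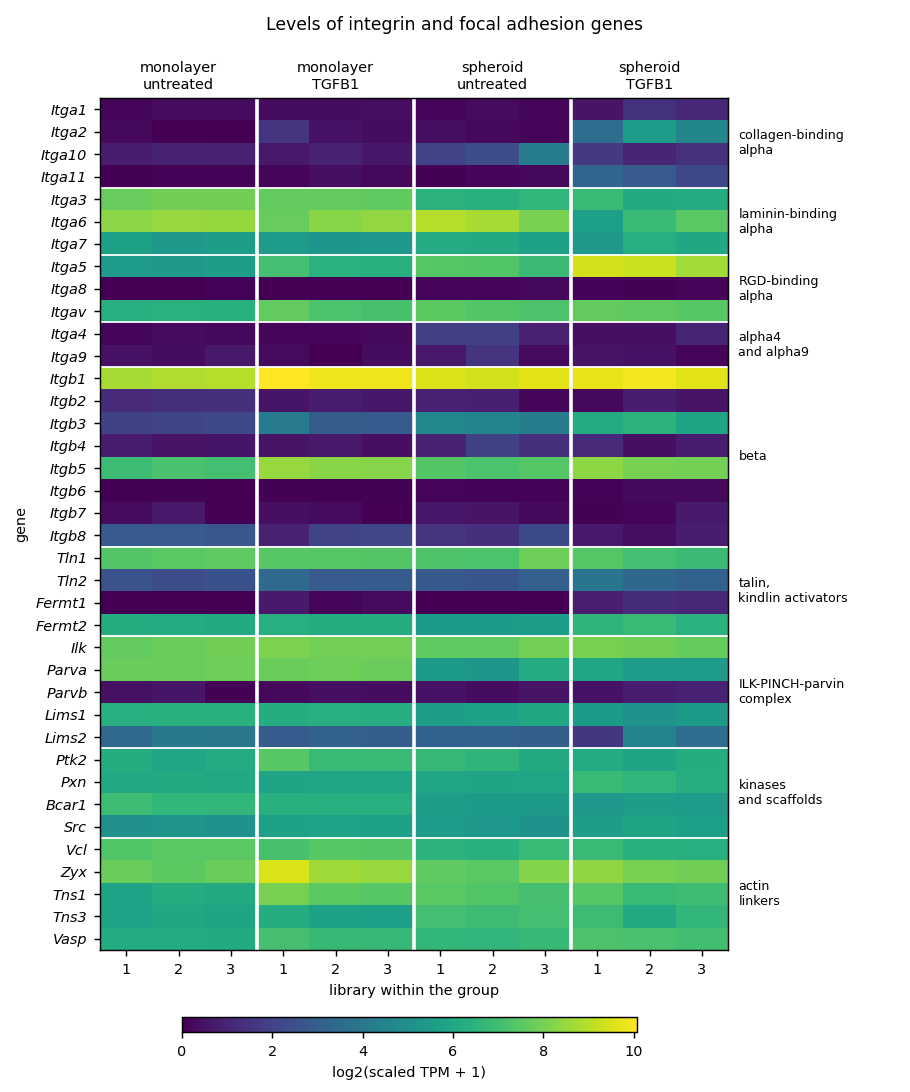
Level of each of the 38 members (rows, grouped by role) in each of the 12 monolayer and spheroid libraries (columns), as log2(scaled TPM + 1). Itgb1 is bright throughout, Itga6 darkens in the spheroids with TGFB1, and Itga2 and Itga11 are brightest in the spheroids with TGFB1, where Itga2 reads 11.1 to 45.0 scaled TPM, against at most 1.93 in the other libraries.

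Genes with at least 1 scaled TPM in at least 3 of the 12 libraries were tested (limma on log2(scaled TPM + 1), adjusted over all 13509 genes, called at an adjusted p under 0.05), and 31 of the 38 members passed this filter. The other 7 were Itga1, Itga8, Itga9, Itgb6, Itgb7, Parvb and Fermt1. Itgb6, which with Itgav activates latent TGF-beta in epithelia, was at most 0.207 in any of the 12 libraries. Fermt1, the epithelial kindlin, was at most 0.0245 in the untreated libraries, 0.673, 0.115 and 0.243 in monolayers with TGFB1 and 0.812, 1.45 and 1.19 in spheroids with TGFB1, and Itga1 reached 0.44, 1.80 and 1.26 there against at most 0.310 in the other groups of this experiment. Itga11 passed the filter through the spheroids with TGFB1 alone and Itgb2 through the untreated monolayers alone. Itga2 passed only with the spheroids with TGFB1 counted, since elsewhere it reached 1 in TGFB1 monolayer 1 alone. Itga4, Itga10 and Itgb4 reached 1 in spheroids only.

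Untreated spheroids held more RNA of fibronectin and vitronectin receptor chains than untreated monolayers, and less of the laminin receptor chain Itga3 and of the parvin Parva. Of the 31 members tested 10 were higher and 8 lower, against a background of 55.2% of all genes called (27.6% higher and 27.7% lower), so the share of members called was near that of all genes. The groups did not overlap for 13 members above and 10 below, and for 65.3% of all genes. The members' median log2 fold change was 0.14 and that of all genes 0.01.

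Among alpha chains, Itga5, the fibronectin receptor chain, read 46.6, 41.6 and 47.3 in monolayers and 171, 159 and 116.5 in spheroids, a log2 fold change of 1.68 ± 0.22 (SE) with a limma adjusted p of 8.33e-05. No spheroid overlapped a monolayer. Itgav, the common alpha chain of the vitronectin receptors, rose from 81.6, 85.6 and 83.0 to 183, 165 and 154 (0.99 ± 0.13, limma adjusted p 7.93e-05), also without overlap. Itga3 moved the other way, from 213, 234 and 239 to 86.8, 82.9 and 101 (-1.33 ± 0.15, limma adjusted p 3.17e-05), while the other abundant laminin receptor chain, Itga6, read 488, 430 and 266 in spheroids against 319, 370 and 355 and was not called (0.14 ± 0.38). Itga10, a collagen receptor chain of cartilage, rose from 0.682 to 0.973 in monolayers to 3.04, 4.17 and 18.2 in spheroids (2.00 ± 0.45, limma adjusted p 0.00322). Untreated spheroid 3 stood far above the others, and without it the log2 fold change was 1.31. Itga4, which binds VCAM1 and fibronectin, rose from at most 0.224 to 2.73, 2.77 and 0.880 (1.35 ± 0.27, limma adjusted p 0.00156). Itga4 and Itga10 reached 1 scaled TPM in spheroids only, and so passed the filter through the side where they were higher. Their tests here are no support.

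Among beta chains, Itgb3, the partner of Itgav in the vitronectin receptor, read 2.83, 3.33 and 3.61 in monolayers and 24.2, 22.4 and 17.7 in spheroids (2.39 ± 0.28, limma adjusted p 3.9e-05). Every spheroid was thus several-fold above every monolayer. Itgb1 rose from 431, 465 and 489 to 730, 661 and 808 (0.66 ± 0.11, limma adjusted p 0.000427). Itgb8, which with Itgav activates latent TGF-beta, fell from 6.41, 6.39 and 5.68 to 1.92, 1.64 and 3.86 (-1.09 ± 0.31, limma adjusted p 0.012). Itgb4, the hemidesmosome chain that pairs with Itga6, read 0.746, 0.437 and 0.490 against 0.957, 2.88 and 1.54 and was called higher (0.79 ± 0.26, limma adjusted p 0.0256), and the leukocyte chain Itgb2 was called lower at a level under 2 in every library (-0.62 ± 0.23); it passed the filter through the untreated monolayers alone, so it had to be lower. Itgb4 reached 1 in spheroids only, so its test is no support either. Both low-level calls were also fragile. That of Itgb4 was lost without untreated spheroid 2 (limma adjusted p 0.108) or untreated monolayer 2 or 3. That of Itgb2 was lost without any one untreated monolayer or untreated spheroid 3 (limma adjusted p 0.0549 to 0.125).

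Of the cytoplasmic members, Parva, the parvin that couples ILK to actin, read 220, 225 and 233 in monolayers and 43.9, 39.6 and 72.6 in spheroids, the largest fall of any member (-2.15 ± 0.18, limma adjusted p 4.44e-06). The groups were far apart. Ilk itself, the hub of that complex, was not called at 199, 215 and 237 against 194, 195 and 241 (-0.05 ± 0.11, 95% interval -0.30 to 0.19), and the PINCH adaptor Lims1 fell (-0.57 ± 0.11). Bcar1, the scaffold p130Cas that stretches under tension, fell from 123, 102 and 100.3 to 48.4, 44.3 and 43.4 (-1.23 ± 0.09, limma adjusted p 1.81e-06). Vcl, the vinculin gene, fell from 162, 177 and 178 to 89.9, 83.2 and 111 (-0.87 ± 0.14, limma adjusted p 0.000334), and the kindlin Fermt2 fell too (-0.64 ± 0.10). Tensins moved the other way. Tns1 rose from 56.9, 74.3 and 70.4 to 178, 163 and 136 (1.23 ± 0.19, limma adjusted p 0.000265), and Tns3 (1.13 ± 0.19) and the actin polymerase factor Vasp (0.51 ± 0.10) were also higher. Tln1 read 166, 182 and 193 against 156, 149 and 231 and Ptk2 read 74.1, 60.8 and 72.9 against 104, 96.3 and 69.1; neither was called, nor was Src at 33.5, 37.0 and 35.5 against 45.3, 40.2 and 34.3.

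In monolayers more members were higher with TGFB1 than lower. Of the 31 tested 10 were higher and 2 lower, where 16.9% of all genes were called (9.12% higher and 7.79% lower). The groups did not overlap for 14 members above and 7 below, and for 47.5% of all genes. The members' median log2 fold change was 0.00, with 0.01 for all genes.

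The integrin chains that rose were the RGD-binding alpha chains and 3 beta chains that can pair with them. Itga5 rose to 135, 86.6 and 84.0 from the monolayer levels above (1.12 ± 0.22, limma adjusted p 0.00639), and Itgav to 202, 147 and 139 (0.94 ± 0.13, limma adjusted p 0.00105). Itgb1 reached 1078, 929 and 895 (1.06 ± 0.11, limma adjusted p 0.000199). All 3 TGFB1 libraries lay above all 3 untreated ones for each of these genes, and TGFB1 monolayer 1 was the highest. Itgb5, another Itgav partner, rose from 120, 146 and 133 to 368, 312 and 305 (1.30 ± 0.12, limma adjusted p 0.000134), and Itgb3 rose to 16.3, 6.84 and 6.67 (1.25 ± 0.28, limma adjusted p 0.0121). Itgb8 was called lower at 0.930, 3.17 and 3.43 (-1.12 ± 0.31, limma adjusted p 0.0334). That call was lost without any one untreated monolayer or without TGFB1 monolayer 1, the lowest of the group (adjusted p 0.0791 to 0.0961). The collagen receptor chain Itga2 read 0.208, 0.0151 and 0.0191 in untreated monolayers and 1.93, 0.403 and 0.252 with TGFB1. The TGFB1 libraries lay above the untreated ones without overlap, but Itga2 was not called at this low level (0.68 ± 0.43, limma adjusted p 0.318), and its log2 coefficient in the authors' deposited table was 3.55. Itga11 read 0.0355, 0.0730 and 0.0690 against 0.0919, 0.301 and 0.155, also without overlap and not called (0.16 ± 0.24). Itga3 and Itga6 were not called (-0.21 ± 0.15 and -0.29 ± 0.38), and Itgb4 (0.457, 0.625 and 0.334) was not called either.

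Inside the cell, the tensin Tns1 showed the largest rise, to 256, 183 and 174 (1.58 ± 0.19, limma adjusted p 0.000531). Zyx, the zyxin gene, which gathers on actin bundles under load, rose from 220, 186 and 223 to 728, 401 and 367 (1.18 ± 0.26, limma adjusted p 0.0112). Ptk2, encoding FAK, rose to 176, 113 and 113 (0.91 ± 0.19, limma adjusted p 0.00969), and its partner kinase Src to 52.9, 54.5 and 52.1 (0.58 ± 0.10, limma adjusted p 0.00381). In all 4 genes the TGFB1 and untreated monolayers did not overlap. Vasp was higher (0.67 ± 0.10) and Bcar1 lower (-0.40 ± 0.09, limma adjusted p 0.0148, lost without untreated monolayer 1 at 0.0568). Tln1 (173, 174 and 165), Vcl (142, 175 and 166) and Ilk (269, 244 and 240) were not called.

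In spheroids the TGFB1 libraries held more Itga2 and Itga11, both collagen receptor chains, more Itga5 and Itgb3, and less Itga6. Of the 31 members 10 were called higher and 5 lower, where 35.6% of all genes were called (18.8% higher and 16.8% lower). The groups did not overlap for 10 members above and 5 below, and for 43.9% of all genes. The members' median log2 fold change was 0.02, against 0.00 for all genes. Which of the smaller changes were called depended on scaling. With each library scaled to an equal sum, the median of all genes moved to -0.16 and the split became 7 higher and 8 lower. Src, Tln2 and Vasp were then no longer called, but their log2 fold changes stayed positive (0.21, 0.44 and 0.28).

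Itga2, the alpha chain of the main epithelial and platelet collagen receptor, read 0.282, 0.153 and 0.0936 in untreated spheroids and 11.1, 45.0 and 23.9 in spheroids with TGFB1. The groups lay far apart although the TGFB1 libraries differed several-fold among themselves. The log2 fold change was 4.36 ± 0.43 with a limma adjusted p of 4.56e-05. Outside the spheroids with TGFB1, Itga2 reached 1 scaled TPM only in TGFB1 monolayer 1 (1.93). It thus passed the filter on low values only with the group where it was high, and its test is no support. Itga11, the collagen receptor chain of fibroblasts, read 0.0467, 0.120 and 0.167 against 8.87, 6.39 and 3.51 (2.64 ± 0.24). It passed the filter on low values through the spheroids with TGFB1 alone, so it had to differ, and its test is no support. For both genes the added 1 in the log2 scale understates the change of low values. The other tested collagen receptor chain, Itga10, fell from the levels above to 2.15, 1.14 and 1.69 (-1.49 ± 0.45, limma adjusted p 0.0258). This fall was -0.80 without untreated spheroid 3, the highest library, and was not called without TGFB1 spheroid 2 (adjusted p 0.0897).

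Itga5 rose to 661, 621 and 413, a log2 fold change of 1.91 ± 0.22 (limma adjusted p 0.000136) and a 3.79-fold rise of the mean, and became the second highest integrin of these libraries after Itgb1. Itga6 fell to 50.9, 110 and 180 (-1.92 ± 0.38, limma adjusted p 0.00325), below all untreated spheroids. Itgb3 rose to 73.5, 89.7 and 58.5 (1.73 ± 0.28, limma adjusted p 0.00102) and Itgb5 from 164, 147 and 169 to 329, 256 and 251 (0.79 ± 0.12, limma adjusted p 0.000762). Itgb8 fell to 0.631, 0.283 and 0.679 (-1.14 ± 0.31, limma adjusted p 0.0166), a call lost without untreated spheroid 3 (0.0529) or TGFB1 spheroid 2 (0.0649). Itga4 was called lower (-0.95 ± 0.27, limma adjusted p 0.0192), with overlapping groups. It passed the filter only with the untreated spheroids counted, so this test is no support. The call was lost without untreated spheroid 1 or 2 or TGFB1 spheroid 1 or 2 (limma adjusted p 0.0542 to 0.0755). Itgav at 201, 193 and 173, Itgb1 at 855, 963 and 788 and Itgb4 at 1.31, 0.326 and 0.689 overlapped the untreated spheroids and were not called.

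**Figure D2:**
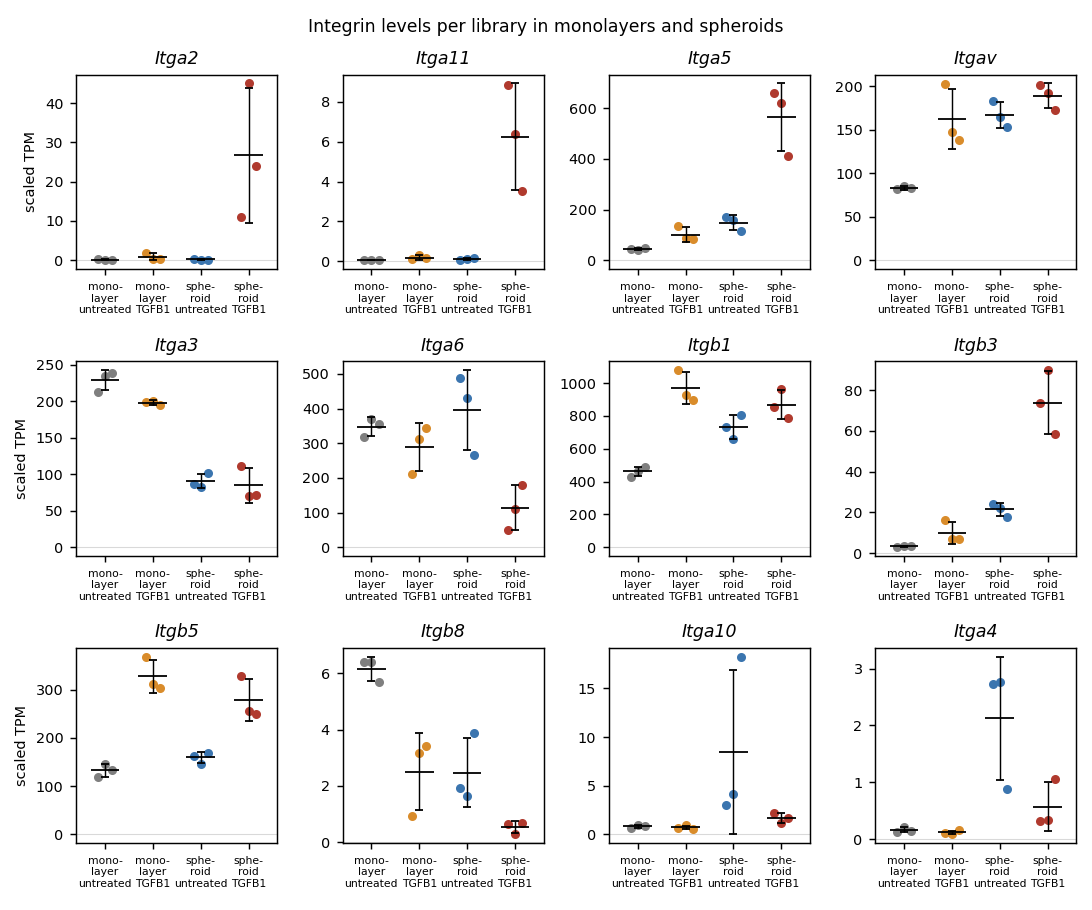
Scaled TPM of 12 integrin genes in each library (points) of the 4 monolayer and spheroid groups, with the mean (bar) and SD (whiskers), n = 3. Itga5 and Itgb3 are highest in the spheroids with TGFB1 and lowest in the untreated monolayers, Itga2 and Itga11 are far higher in the spheroids with TGFB1 than in the other groups, and Itgb8 is highest in the untreated monolayers.

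Among the cytoplasmic members Fermt2, the kindlin that works with talin on Itgb1, read 43.9, 43.4 and 49.4 in untreated spheroids and 96.4, 111 and 85.1 with TGFB1 (1.07 ± 0.10, limma adjusted p 2.31e-05). Its groups did not overlap. The paxillin gene Pxn, a docking scaffold of the adhesion, rose from 61.6, 57.4 and 59.9 to 110, 98.5 and 77.4 (0.65 ± 0.11, limma adjusted p 0.00116). Vasp (0.47 ± 0.10), Src (0.39 ± 0.10, at 49.3, 58.3 and 50.04) and Tln2 (0.61 ± 0.21) were called higher, and Lims1 lower (-0.42 ± 0.11). Of these, Vasp, Src and Tln2 were not called with equal sums (adjusted p 0.0699, 0.104 and 0.141); Src was also lost without TGFB1 spheroid 2 (0.0548), and Tln2 without untreated spheroid 1 or 2 or TGFB1 spheroid 1 or 2 (0.0777 to 0.134). When only the 6 spheroid libraries were fitted, the calls of Lims1 (limma adjusted p 0.0845), Src (0.0788) and Tln2 (0.115) were lost. Those of the alpha chains Itga10 (0.118) and Itga4 (0.0948) were lost in that fit too. Ptk2 at 72.8, 58.1 and 74.1, Tln1 at 171, 132 and 115, Vcl at 108, 82.9 and 78.7 and Ilk at 254, 236 and 206 overlapped the untreated spheroids and were not called. Leaving out TGFB1 spheroid 2 lowered the number of members called from 15 to 10.

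The effect of TGFB1 itself differed between the cultures for 8 members. This was tested as the interaction, in which the monolayer effect of TGFB1 is subtracted from its spheroid effect, and which called 15.8% of all genes (8.72% above 0 and 7.11% below) and 4 members on each side. With equal sums the median of all genes was -0.21, and 4 members were called above 0 and 6 below. The effect was larger in spheroids for Itga2 (difference of log2 fold changes 3.68 ± 0.61, limma adjusted p 0.00282), Itga11 (2.48 ± 0.34), Fermt2 (0.98 ± 0.14, limma adjusted p 0.00102) and Pxn (0.82 ± 0.15, limma adjusted p 0.00534). It was larger in monolayers for Tns1 (-1.82 ± 0.27, limma adjusted p 0.00156), Ptk2 (-1.29 ± 0.28, limma adjusted p 0.0104), Itgb1 (-0.82 ± 0.15, limma adjusted p 0.00575) and Itgav (-0.76 ± 0.18, limma adjusted p 0.0174). As Itga11 passed the filter through the spheroids with TGFB1 alone, its difference was built in. Itga2 passed the filter only with that group counted, so its test is no support either. The last 4 had risen with TGFB1 in monolayers and were not called in spheroids. Each of the 8 was also called with any one library left out and under every other setting tried. For Itga5, Itgb3 and Itgb8, called with TGFB1 in both cultures, the interaction was not called (0.78 ± 0.31, 0.47 ± 0.40 and -0.02 ± 0.44). Over both cultures, Itga5, Itgb3, Itgb5, Src and Vasp were higher with TGFB1 and Itgb8 lower, and no member was called in opposite directions.

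**Figure D3:**
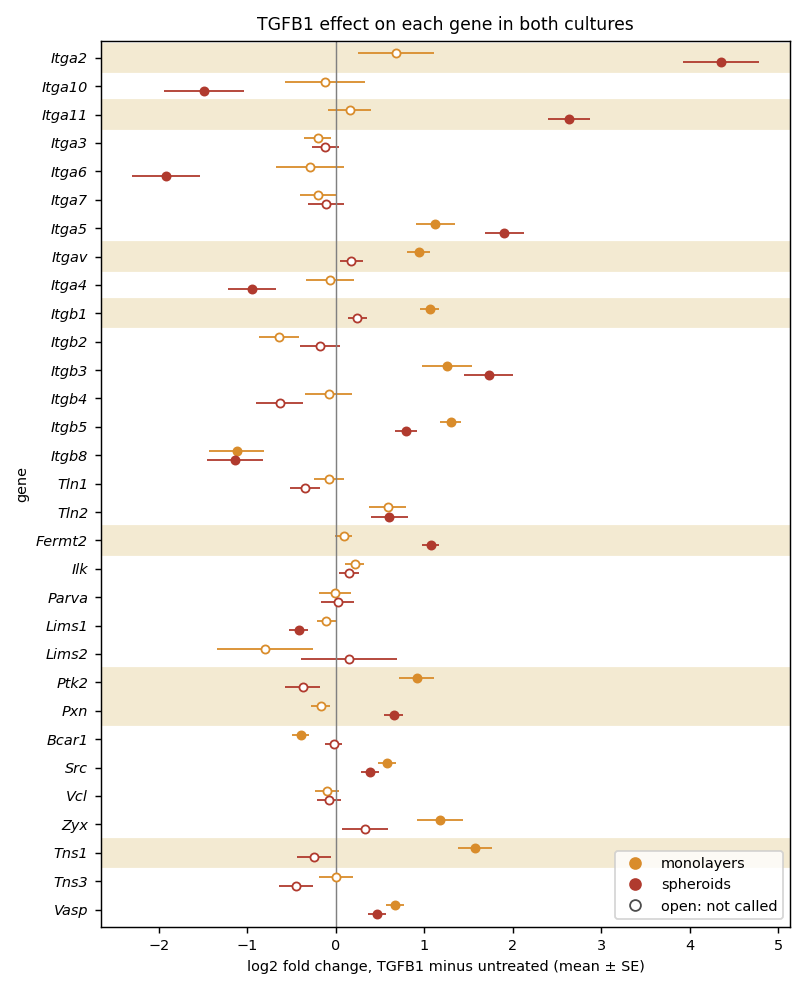
Log2 fold change with TGFB1 (mean ± SE) of the 31 tested members in monolayers and in spheroids; filled points were called at an adjusted p under 0.05, open points were not, and shaded rows are the 8 members whose effect differed between the cultures. Itga2 at 4.36 and Itga11 at 2.64 stand out in spheroids and Tns1 at 1.58 in monolayers.

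Under TGFB1, spheroids and monolayers differed in 9 members called higher in spheroids and 10 lower, where 51.9% of all genes were called (25.3% higher and 26.5% lower), and the members' median log2 fold change was -0.02, with 0.00 for all genes. The groups did not overlap for 8 members above and 10 below, and for 59.4% of all genes. With equal sums the median of all genes moved to -0.15 and the split became 5 higher and 13 lower. Itga2 (3.80 ± 0.43, limma adjusted p 2.97e-05), Itgb3 (2.87 ± 0.28), Itga11 (2.55 ± 0.24) and Itga5 (2.46 ± 0.22) were higher in spheroids, with no overlap of libraries. Itga2 and Itga11 passed the filter only with the spheroids with TGFB1 counted, so their tests are no support. Parva, at 60.6 or less in every spheroid with TGFB1 against at least 220 in every monolayer with TGFB1, was again the member that fell most (-2.12 ± 0.18, limma adjusted p 4.64e-06). Itga3 fell from 199, 200.2 and 194 to 112, 70.7 and 71.6 (-1.25 ± 0.15, limma adjusted p 5.1e-05), and Itga6 was lower as well (-1.49 ± 0.38, limma adjusted p 0.00756). Itgb8 (-1.11 ± 0.31) was lower, a call lost without TGFB1 monolayer 2 or 3 (adjusted p 0.0502 and 0.0521). Lower too were Vcl (-0.84 ± 0.14), Lims1 (-0.88 ± 0.11), Bcar1 (-0.86 ± 0.09) and Ptk2 (-0.94 ± 0.19). Culture had opposite calls without and with TGFB1 for Fermt2 and Tns1: Fermt2 was lower in untreated spheroids and higher in TGFB1 spheroids (0.34 ± 0.10), and Tns1 was higher in untreated spheroids and lower in TGFB1 spheroids (-0.59 ± 0.19). The call of Fermt2 was lost with equal sums (adjusted p 0.143), and that of Tns1 without TGFB1 monolayer 1 or TGFB1 spheroid 2 or 3 (0.0696 to 0.0887). The calls of Pxn (0.64 ± 0.11), Tns3 (0.67 ± 0.19), Itga7 (0.52 ± 0.20) and Vasp (0.31 ± 0.10), all higher, and of Zyx (-0.80 ± 0.26) completed the 19. With equal sums the calls of Tns3, Itga7 and Vasp were lost as well (limma adjusted p 0.0702, 0.117 and 0.348). Of these 5 genes, only Pxn was called with any one library left out. The calls were lost without TGFB1 monolayers 1, 2 and 3 and TGFB1 spheroids 2 and 3 for Itga7 (adjusted p 0.0544 to 0.188), TGFB1 monolayer 1 and TGFB1 spheroids 2 and 3 for Zyx (0.0657 to 0.0814), TGFB1 monolayer 3 for Tns3 (0.0517), and TGFB1 monolayers 2 and 3 and TGFB1 spheroids 1 and 2 for Vasp (0.0641 to 0.109). Over the 4 comparisons of the main analysis Itga5, Itgb3, Itgb8 and Vasp were called in each, and Tln1, Ilk and Lims2 in none.

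Set against the sum of all 12 alpha chains within a library, which removes the library's scaling factor, laminin-binding chains held most of the alpha level in 3 groups and RGD-binding chains in the spheroids with TGFB1. The laminin-binding chains held 81.8%, 83.4% and 82.9% of the summed alpha level in untreated monolayers and 57.3%, 70.1% and 72.0% in monolayers with TGFB1. They held 64.2%, 63.6% and 59.1% in untreated spheroids and 18.8%, 23.1% and 33.9% in spheroids with TGFB1. The RGD-binding chains made up most of the rest, with 17.1% ± 0.815, 33.2% ± 7.90, 36.2% ± 1.66 and 71.3% ± 8.19 in the same order (mean ± SD, n = 3). Itga5 alone held 6.0% ± 0.596 in untreated monolayers and 53.3% ± 8.35 in spheroids with TGFB1. No library of one group overlapped the other in these class shares when TGFB1 was compared with untreated cells in either culture, or untreated spheroids with untreated monolayers. The exact two-sided permutation p was 0.1 for each, the smallest that 3 against 3 libraries can give, and 0.133 to 0.178 after adjustment over the 16 shares of a comparison. Among beta chains the share of Itgb1 ran from 71.0% ± 2.87 in spheroids with TGFB1 to 79.7% ± 0.953 in untreated spheroids. The Itgb1 share did not overlap between groups in any of the 4 culture and TGFB1 comparisons. The share of Itgb3 was 0.536% ± 0.0332 in untreated monolayers and 6.0% ± 0.777 in spheroids with TGFB1. The summed alpha level was 755 ± 35.8 in untreated monolayers and 795 ± 7.39 with TGFB1, and the summed beta level was 606 ± 38.6 and 1309 ± 136.

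**Figure D4:**
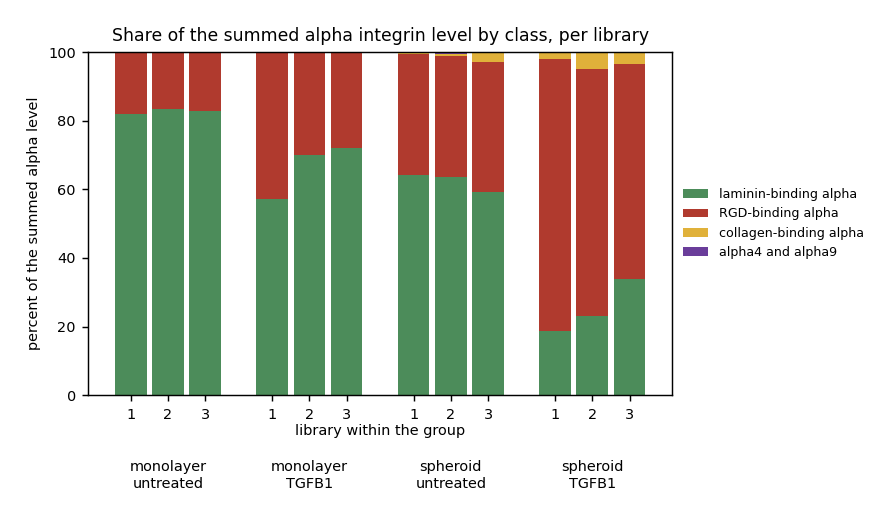
Share of the summed level of the 12 alpha integrins held by each ligand class, in percent, for each of the 12 libraries. The laminin-binding share is 18.8% to 33.9% in the 3 spheroids with TGFB1 and 57.3% or more in the other libraries.

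Ligands of these receptors and other adhesion genes were read from lists of their own. The lists were chosen with earlier results of these data known, so the shares called describe them and were not tested. Of 35 integrin ligands 28 were tested, and in untreated spheroids 6 were higher and 11 lower than in monolayers (median log2 fold change -0.26, with 0.01 for all genes). The share called was 60.7%, near the 55.2% of all genes. Spp1 (osteopontin, a ligand of Itgav with Itgb3) rose from 136, 117 and 136 to 14640, 14040 and 4019 (6.17 ± 0.41, limma adjusted p 8.49e-07) and Tnc (tenascin C) rose too (4.43 ± 0.33, limma adjusted p 1.66e-06). Thbs1 (thrombospondin 1), Npnt (nephronectin), Cyr61 and Col1a1 fell, with log2 fold changes of -3.49 ± 0.23, -3.24 ± 0.23, -2.90 ± 0.47 and -2.18 ± 0.18. With TGFB1 8 ligands rose and 6 fell in monolayers, led by Col1a1, which went from 6.01, 6.74 and 7.02 to 214, 136 and 123 (4.34 ± 0.18, limma adjusted p 7.82e-07), and 9 rose and 7 fell in spheroids. These were 50% and 57.1% of the ligands tested, beside 16.9% and 35.6% of all genes. In spheroids Fn1, fibronectin, the ligand of Itga5 with Itgb1, rose from 492, 435 and 319 to 8515, 7650 and 4505 (4.02 ± 0.22, limma adjusted p 6.14e-07). In monolayers Fn1 went from 159, 148 and 185 to 281, 280.0 and 271 (0.76 ± 0.22), and the effect was larger in spheroids (interaction 3.26 ± 0.31, limma adjusted p 0.000111). The Tgfb1 transcript, which encodes a ligand whose latent form binds Itgav integrins, was 34.6 to 38.7 in untreated and 38.8 to 40.2 in TGFB1 monolayers, 93.8 to 107 in untreated spheroids and 624 to 991 in TGFB1 spheroids. Col6a1 and Col6a2, of collagen VI, fell with TGFB1 in both cultures (-2.64 ± 0.50 and -1.25 ± 0.19 in monolayers, -2.94 ± 0.50 and -1.50 ± 0.19 in spheroids).

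Of 60 other adhesome genes 55 were tested. In untreated spheroids 13 were higher and 21 lower, in monolayers with TGFB1 14 were higher and 3 lower, and in spheroids with TGFB1 18 were higher and 7 lower, so 61.8%, 30.9% and 45.5% were called beside 55.2%, 16.9% and 35.6% of all genes. The LIM protein Pdlim1, which binds alpha-actinin, fell from 105, 110.0 and 107 to 18.9, 14.0 and 18.6 in spheroids (-2.59 ± 0.28), and it rose with TGFB1 in monolayers (2.58 ± 0.28) and in spheroids (2.66 ± 0.28). Ajuba, a LIM protein of adhesions and junctions, fell from 47.6, 42.7 and 42.1 to 6.11, 7.01 and 6.39 in spheroids (-2.59 ± 0.11, limma adjusted p 3.74e-08). Cav1, caveolin 1, rose in untreated spheroids (2.32 ± 0.24) and fell there with TGFB1 (-1.76 ± 0.24), and the Src-family kinase Fyn rose in untreated spheroids from 1.34, 1.40 and 1.62 to 36.9, 27.4 and 8.79 (3.16 ± 0.49). Of 6 integrins outside the 38, Itgax, a partner of Itgb2 in leukocytes, rose from 0.237, 0.595 and 0.310 to 10.1, 8.56 and 19.7 in untreated spheroids (3.24 ± 0.25, limma adjusted p 2.2e-06) and to 47.7, 41.2 and 33.0 with TGFB1. No untreated monolayer reached 1 scaled TPM for Itgax. In this comparison it thus passed the filter through the side where it was higher, and its test is no support. Beside Itgax, Itgb2 was at or under 0.994 in every spheroid and Ptprc at or under 0.124. The leukocyte marker Cd68 read 17.7, 25.3 and 23.6 in untreated monolayers, 7.03, 9.52 and 9.27 with TGFB1, 65.8, 62.2 and 14.2 in untreated spheroids and 11.6, 62.5 and 51.9 in spheroids with TGFB1. Cd68 was called higher in spheroids than in monolayers under TGFB1 (1.87 ± 0.63, limma adjusted p 0.0281) and not in the untreated comparison or with TGFB1 in either culture, and its part in the Itgax result was not tested.

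In m1102 cells with the Snail construct no member passed the test. Snail is the repressor encoded by Snai1, and Snai1 read 13.7, 10.1 and 9.81 with the WPI vector and 234, 195 and 193 with the construct (4.10 ± 0.13, limma adjusted p 2.54e-05). Of the 38 members 25 were tested and 0 called by limma, where 1.72% of 12240 genes were called (0.572% higher and 1.14% lower). At an unadjusted p under 0.05 there were 4 members, and 14.8% of all genes. The members' fitted log2 fold changes ran from -0.46 for Itgb3 to 0.15 for Tln2, with 95% intervals between -0.83 and 0.37, a median of -0.06 against 0.01 for all genes, and a smallest adjusted p of 0.111 for Itga7. Itgb3 read 5.38, 6.60 and 4.87 with the vector and 3.17, 3.55 and 4.76 with Snail, without overlap, and Itgb1 read 458, 501 and 473 against 429, 451 and 446, also without overlap. Itgav read 111, 110.3 and 105 against 102, 99.0 and 103, while Itga5 at 54.9, 58.6 and 51.9 against 51.9, 50.8 and 56.8 overlapped. Itgb8 (4.78, 5.50 and 6.04 against 4.92, 5.10 and 5.09), Ptk2 (101, 90.7 and 93.1 against 97.0, 86.0 and 84.8), Tln1 (253, 238 and 239 against 241, 226 and 236), Vcl (190, 160.0 and 167 against 197, 168 and 168) and Src (37.1, 44.8 and 41.6 against 42.5, 39.3 and 42.5) overlapped too. Itgb4, below the filter, read 0.297, 0.391 and 0.346 against 1.29, 0.805 and 0.766, and Itgb6 was at most 0.106. Of the tested members, 2 lay wholly above and 5 wholly below the vector libraries, where 20.6% of all genes did not overlap. Ilk, 1 of the 2 above, read 236, 252 and 228 against 259, 255 and 268. In the authors' deposited table, which lists 32 of the members, 1 member had a q-value under 0.05, Itga7 (log2 coefficient -0.33, q 0.0042), where 3.83% of its genes did. Of 27 ligands tested, 3 rose: Col6a2 from 6.12, 3.92 and 4.65 to 26.3, 18.3 and 13.4 (1.75 ± 0.24, limma adjusted p 0.0192), Col6a1 (1.20 ± 0.22, limma adjusted p 0.0477) and Tnc (1.05 ± 0.16, limma adjusted p 0.027). Of 53 other adhesome genes tested by limma 0 were called, with 6 at an unadjusted p under 0.05.

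In the BRCA1 experiment the deposited Brca1 level did not separate the labels. Brca1 read 4.27, 12.3 and 3.66 in the libraries labelled BRCA1 wt and 5.34, 11.1 and 4.09 in those labelled BRCA1 ko (0.09 ± 0.50, limma adjusted p 0.904). The value covers the whole gene, and the floxed part was not measured apart, so it does not check the labels fully. The libraries labelled BRCA1 wt also differed among themselves: libraries 1 and 3 summed to 1217651 and 1810667 and library 2 to 796668, next to 819962 to 843146 in the libraries labelled BRCA1 ko.

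The laminin receptor chain Itga7 was the one member called lower in the libraries labelled BRCA1 ko. Of 28 members tested 1 was called higher and 1 lower, where 14.3% of 12775 genes were called (9.04% higher and 5.27% lower), and the members' median log2 fold change was 0.05, with 0.17 for all genes (0.63 with equal sums, when again 1 member was called on each side). The groups did not overlap for 5 members above and 6 below, and for 44.9% of all genes. Itga7 read 97.5, 71.9 and 157 in the libraries labelled BRCA1 wt and 16.7, 15.5 and 22.1 in those labelled BRCA1 ko (-2.47 ± 0.32, limma adjusted p 0.00596), far apart and called with any one library left out. The talin Tln2 read 0.810, 0.919 and 0.991 against 2.11, 2.54 and 3.05 and was called higher (0.90 ± 0.20, limma adjusted p 0.0338). It passed the filter through the libraries labelled BRCA1 ko alone, so it had to differ. Its call was lost without any one of BRCA1 ko libraries 1, 2 and 3 or BRCA1 wt library 1 or 3 (adjusted p 0.0759 to 0.158).

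BRCA1 wt library 2 set the spread of most other members. Itgb1 read 97.7, 268 and 71.5 in the libraries labelled BRCA1 wt and 218, 204 and 264 in the libraries labelled BRCA1 ko, Itgb8 read 1.38, 10.0 and 0.769 against 10.2, 9.40 and 9.37, and Vcl read 55.0, 197 and 16.5 against 90.1, 92.2 and 103. In each, wt library 2 lay far above the other wt libraries and within or above the range labelled BRCA1 ko. Itga5 (31.4, 69.8 and 23.3 against 67.4, 54.1 and 122) and Itgb3 (1.51, 7.66 and 1.13 against 3.55, 5.23 and 5.52) had the same order, and Tln1, at 117, 247 and 120 against 321, 292 and 315, did not overlap (1.03 ± 0.33, limma adjusted p 0.0709). Without wt library 2, 18 of the 28 members were called, 13 higher and 5 lower, among 65.9% of all genes. Then Itgb1 was higher by 1.43 ± 0.20, Itgb8 by 2.38 ± 0.20, Tln1 by 1.38 ± 0.15 and Vcl by 1.62 ± 0.44, each with a limma adjusted p under 0.05. Ilk, at 192, 161 and 227 against 131, 119 and 141, fell by 0.68 ± 0.17. Itgav (0.07 ± 0.20), Src (0.27 ± 0.19), Ptk2 (-0.36 ± 0.16) and Itgb4 (0.18 ± 0.27) were not called. The share of members called was near that of all genes. This fit was singled out after wt library 2 was seen to lie apart, so its calls are no support. Wt libraries 1 and 3 had larger sums (1217651 and 1810667) than the libraries labelled BRCA1 ko (819962 to 843146). The fit was not repeated with equal sums, so whether the fall of Ilk depends on scaling was not tested. In the authors' deposited table, which lists 34 of the members, 6 had a q-value under 0.05, where 21.9% of its genes did: Itga7 (log2 coefficient -2.86), Zyx (-1.18), Ptk2 (-0.92), Ilk (-0.91), Tln2 (1.15) and Itga2 (2.52). Itga2 was at most 0.157 in any library of this experiment. Of 30 ligands tested, 2 rose and 1 fell, and of 53 other adhesome genes 1 rose and 7 fell. The actin-binding gene Nexn read 77.6, 20.3 and 157 in the libraries labelled BRCA1 wt and 4.56, 4.20 and 2.90 in those labelled BRCA1 ko (-3.73 ± 0.67, limma adjusted p 0.0179).

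**Figure D5:**
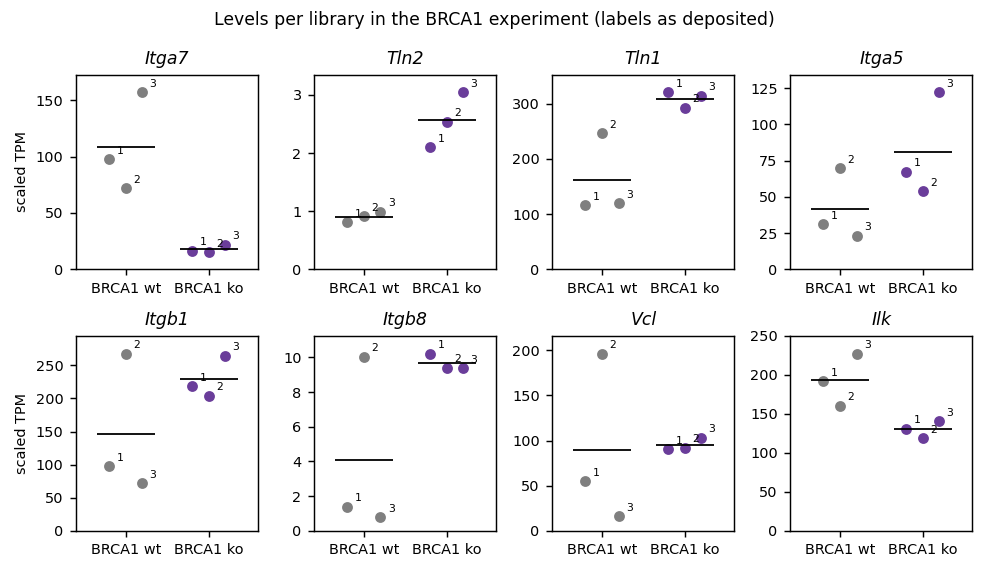
Scaled TPM of 8 members in each library (points, numbered by library) of the groups labelled BRCA1 wt and BRCA1 ko, with the mean as a bar, n = 3. For Itga7 the groups lie apart, at 71.9 to 157 and 15.5 to 22.1, while for Itgb1, Itgb8 and Vcl BRCA1 wt library 2 lies far above wt libraries 1 and 3.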

How the data were processed

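RNA of 24 libraries was sequenced after poly(A) selection, and the 3 deposited expression tables were used; 0 columns of per-sample values were left unused. Per the submitters' processing notes, kallisto 0.44.0 and sleuth 0.30.0 were used on GRCm38. The authors deposited one signal value per gene and library, named as TPM; the columns sum to differing totals, so the signal is read as TPM times a factor per library. For each gene the authors also deposited a q-value, a p-value and a coefficient on the natural log scale, which was divided by the natural log of 2; in the monolayer and spheroid table that p-value covers several terms at once and was not used. Groups came from the labels. limma 3.58.1 in R 4.3.3 (lmFit, eBayes with a trend) was fitted to log2(scaled TPM + 1) for genes of at least 1 in at least 3 libraries, the 12 monolayer and spheroid libraries together and the other tables each alone, two-sided, Benjamini-Hochberg adjusted over all genes tested. The test was planned for plain TPM and kept for scaled TPM. Tables were read with Python 3.11.15, pandas 2.3.3 and numpy 2.4.6, and scipy 1.17.1 gave the exact permutation tests. The fits were tested on simulated data. Gene positions are from GENCODE M21, which held all 38 members, and promoters from RefSeq.

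The members and the lists (35 integrin ligands, 60 other adhesome genes, 6 other integrins, markers) were chosen with earlier results of these data known. Named genes followed a rule: any called member, values per library for the 8 largest called changes of a comparison and for 12 standing members (Itgb1, Itgav, Itga5, Itgb3, Itgb4, Itgb6, Itgb8, Ptk2, Tln1, Vcl, Ilk, Src), and up to 5 called rises and falls of each list. Itga1, Fermt1, Itgb2, Itgax and Itga2 in the BRCA1 table, and members called in the authors' table alone, were named after their values were seen. Read counts were not used, so the depth behind a value is unknown. Alternatives were other pseudocounts (0.1 and 5), no filter, equal sums, quantile normalization, the replicate number as a block, library quality weights, fits of 6 libraries and leaving out each library.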

Additional observations from a re-analysis of the deposited data

Results flagged for a closer look

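The TGFB1 effect differed between spheroids and monolayers for 8 members by the limma interaction test, each value being the log2 effect in spheroids minus that in monolayers. The difference was 3.68 for Itga2, 2.48 for Itga11, 0.98 for Fermt2 and 0.82 for Pxn, whose rise with TGFB1 was called in spheroids and not in monolayers. Itga11 passed the filter on low values through the spheroids with TGFB1 alone, so its difference was built in. Itga2 passed only with that group counted, so its test is no support. The difference was -1.82 for Tns1, -1.29 for Ptk2, -0.82 for Itgb1 and -0.76 for Itgav, whose rise was called in monolayers and not in spheroids. For each of the 8, the interaction coefficient in the authors' deposited table had the sign given here. It comes from the same 12 libraries and is no independent check. Spheroids were given TGFB1 before low-attachment culture and all monolayer libraries are labelled as re-analysed, so culture, schedule and origin of the libraries cannot be told apart here. Groups of 3 are too small for a check of single outlying libraries.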

How the results depend on the processing

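No result changed direction past its threshold under any setting tried. The number of members called moved by more than 1.5 times for the interaction with library quality weights (14 called, 8 in the main analysis) and for BRCA1, where the main number was 2: without a filter it was 1, with quantile normalization 1, with the replicate block 1, with library quality weights 22 (a fit of weights that did not fully converge), and with single libraries left out 1 to 18, the 18 being without BRCA1 wt library 2. The cause was not tested. The genes kept in every leave-one-out fit were 16 of 18 for untreated spheroids against monolayers, 10 of 12 for TGFB1 in monolayers, 10 of 15 for TGFB1 in spheroids, 13 of 19 for culture under TGFB1, 8 of 8 for the interaction and 1 of 2 for BRCA1. With all other settings counted as well, 16, 10, 8, 12, 8 and 1 were kept, in the same order. For low genes the size depended on the pseudocount: the log2 fold change of Itga2 with TGFB1 in spheroids was 6.44 at 0.1 and 2.46 at 5, and that of Itga11 was 4.86 and 1.11. Over all genes, the number called with TGFB1 in monolayers (2284) was 6431 with quality weights, 3585 with the 6 libraries compared and 1234 to 1351 without untreated monolayer 1, 2 or 3 or TGFB1 monolayer 1. In spheroids (4810) it was 2769 with the 6 libraries compared, and for the interaction (2138) it was 4385 with quality weights and 1402 without untreated monolayer 3. For Snail (210) it was 54 without a filter and 23 to 75 with a library left out. For BRCA1 (1828) it was 1091 without a filter, 818 with equal sums, 11536 with quality weights, 8420 without BRCA1 wt library 2 and 284 to 685 without another library.

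Same-numbered libraries did not deviate together (r -0.32 to 0.19 between monolayer and spheroid groups, -0.08 to 0.33 for Snail and -0.17 to -0.05 for BRCA1), so the numbers are not treated as pairs. With the replicate block the members called were 18, 12, 15, 18 (19 without it) and 8 in the monolayer and spheroid comparisons, 0 for Snail by limma and 1 for BRCA1, and the genes called fell from 210 to 16 for Snail and from 1828 to 433 for BRCA1. Depth is unknown, so nothing can be said of the smallest level that could be detected.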
